A study of Mus musculus with 12 samples.

Results

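The genes described here are 46 protein-coding genes that moved in opposite directions in a pair of comparisons from one mouse study of spinal cord injury. The first comparison set regulatory T (Treg) cells from the injured spinal cord against Treg cells from the spleen, both taken 14 days after injury, with 3 libraries each. The second set primary microglia cultured together with Treg cells against unstimulated primary microglia, again with 3 libraries each. All 12 libraries were sequenced in bulk from messenger RNA, and levels are in FPKM, a measure corrected for transcript length and sequencing depth. Strain, sex, age, culture time, the isolation of the Treg cells and the origin of those added to the microglia are not given in the labels. These also leave unsaid if the 3 libraries are different animals or cultures, so their spread may be technical.

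Members were chosen from their measured values. A gene needed a row in both deposited tables, an average of 1 FPKM or more over the 6 libraries of each, and differences in mean log2(FPKM + 1) of opposite sign and at least 0.5 in size. Ahr, Cxcr4, Egr2, solute carriers, glutathione S-transferases and several receptor families were left out by name, which removed 5 genes (Ahr, Cxcr4, Egr2, Mgst2 and Gpr183). Of 3186 genes with a row in either table, 284 had one in both, which is 22.1% of the Treg table and 13.0% of the microglia table. Of the 209 that passed the filter on the mean, 144 were higher and 14 lower in both the spinal cord Treg cells and the co-cultured microglia, and 51 were opposite. The 46 members, 22% of the 209, split into 38 that were higher in spinal cord Treg cells and lower in co-cultured microglia (18.2%) and 8 with the reverse pattern (3.83%). Since both contrasts chose the members, their differences are given as a description without a test.

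Treg cells restrain other immune cells, and in injured tissue they take on programmes for residence and repair that differ from those of lymphoid organs. Microglia, the macrophages that live in brain and spinal cord, carry sensing receptors such as Cx3cr1 and Cd14. Lipid receptors, leukocyte cytoskeletal proteins, cytokines and the ribosome assembly machinery are used by both lineages, so the same gene can be measured in each.

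The sequences of 4 promoters are shown because they belong to the groups of members that shared a role and a direction: the nucleolar genes Heatr1, Tma16 and Ccdc86, and Srxn1, an antioxidant gene. Each window runs from 250 bases before the RefSeq start of the gene to 30 bases after it (GRCm38.p6, 5′ to 3′ on the strand of the gene). Capitals mark the E-box CACGTG in Tma16 and Ccdc86 and the AP-1 motif TGANTCA in Srxn1, and the Heatr1 window holds none of the capitalized motifs.
Heatr1 (chr13:12395125-12395404, + strand): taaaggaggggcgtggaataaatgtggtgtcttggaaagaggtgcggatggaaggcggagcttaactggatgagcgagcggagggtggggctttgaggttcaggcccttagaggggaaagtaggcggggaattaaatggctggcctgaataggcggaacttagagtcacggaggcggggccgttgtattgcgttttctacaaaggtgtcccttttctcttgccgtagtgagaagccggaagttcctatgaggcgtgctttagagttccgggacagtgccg
Tma16 (chr8:66486501-66486780, - strand): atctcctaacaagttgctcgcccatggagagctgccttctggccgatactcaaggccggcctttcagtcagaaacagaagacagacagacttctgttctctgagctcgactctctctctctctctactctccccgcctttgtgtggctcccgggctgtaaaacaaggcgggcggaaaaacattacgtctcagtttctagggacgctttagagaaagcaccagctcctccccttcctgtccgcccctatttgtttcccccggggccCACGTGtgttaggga
Ccdc86 (chr19:10949237-10949516, - strand): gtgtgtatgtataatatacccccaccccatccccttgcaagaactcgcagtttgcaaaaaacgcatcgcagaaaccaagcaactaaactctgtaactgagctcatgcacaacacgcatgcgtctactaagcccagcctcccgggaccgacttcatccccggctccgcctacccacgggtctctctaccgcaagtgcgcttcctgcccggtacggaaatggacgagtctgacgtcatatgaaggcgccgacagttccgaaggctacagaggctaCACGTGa
Srxn1 (chr2:152105274-152105553, + strand): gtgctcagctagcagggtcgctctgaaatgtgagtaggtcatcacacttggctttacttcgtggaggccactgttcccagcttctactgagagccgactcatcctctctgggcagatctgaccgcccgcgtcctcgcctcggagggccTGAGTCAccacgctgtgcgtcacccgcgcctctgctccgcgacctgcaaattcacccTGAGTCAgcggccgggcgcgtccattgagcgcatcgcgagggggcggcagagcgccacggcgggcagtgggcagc

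The E-box, read by Myc and related factors, lay 16 bases into Tma16 and 24 bases into Ccdc86, counting the start base as 1, and had no match in the Heatr1 window. Among full windows of 300 bases, 2 of 8 windows of the cord-lower members and 1 of 29 windows of the cord-higher members held it (the third was Irs2), against 7.15% of all 32851 RefSeq windows. The AP-1 motif stood at -102 and -45 in Srxn1, and it was found in 2 of 8 (Il1a and Tnfsf14) and 2 of 29 windows (Ctla2b and Srxn1), against 7.81% of all. The antioxidant response element was read only as TGACNNNGC. It matched 4 of the 29 windows (Srxn1, Irs2, Ctla2b and Mpc1) and none of the 8, against 12.4% of all. Its match in Srxn1 began 29 bases into the gene, at the edge of the printed window. The AP-1 match at -45 in Srxn1 continues as TGAGTCAGC, with G where this form has C. Forms with G at that place were not searched. The interferon-stimulated response element matched Clec4d and Cytip, 2 of 29 windows, against 3.44% of all. The cAMP response element TGACGTCA matched Ccdc86 among members and 1.79% of all windows, and CCAAT matched 13 of 29 and 1 of 8 windows, against 37.4% of all. Both strands were read, and windows were found for 33 of the 46 members. The median GC content was 63.7% in the 29 windows, 55.5% in the 8 and 56.3% in the 268 windows of all genes with a row in both tables.

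**Figure D1:**
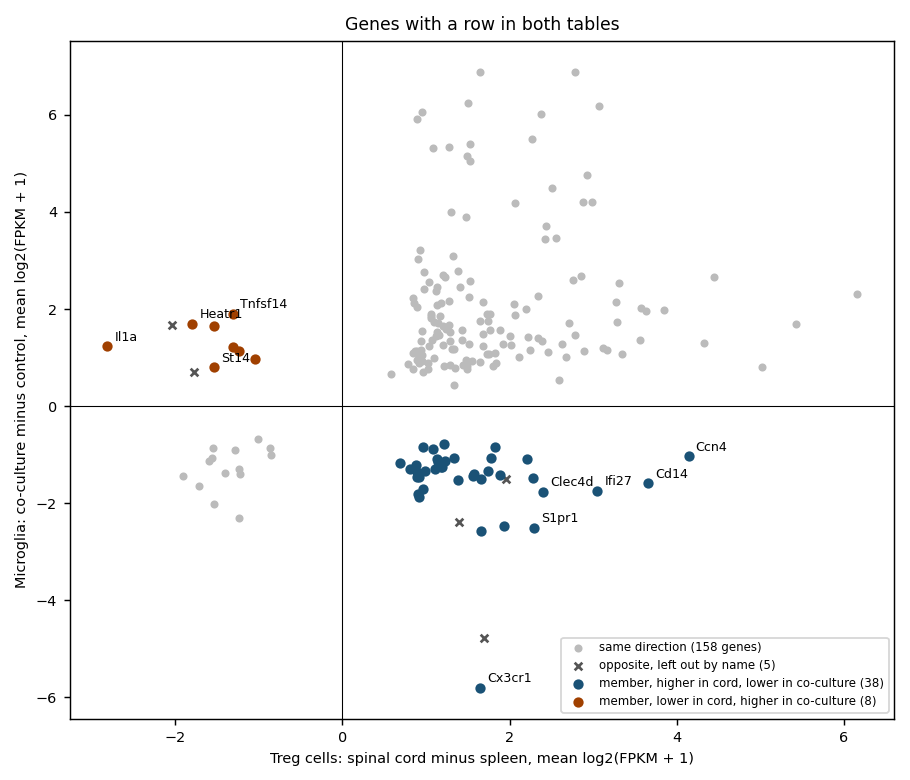
Each point is 1 of the 209 genes listed in both tables and averaging 1 FPKM or more in each, placed by its difference in the Treg cells (x axis, spinal cord minus spleen) and in the microglia (y axis, co-culture minus control), both in mean log2(FPKM + 1). Members fill the lower right (38 genes) and upper left (8 genes), crosses mark the 5 opposite genes left out by name, and the 158 grey genes moved the same way in both.

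The 8 genes lower in spinal cord Treg cells and higher in co-cultured microglia included 3 of the nucleolus and ribosome assembly. Heatr1 (NCBI gene 217995, chromosome 13, 12395375 to 12438893) is a component of the machinery that processes the small ribosomal subunit. Its level was 23.6, 25.4 and 28.1 FPKM in the spleen libraries and 9.76, 6.12 and 4.86 FPKM in the spinal cord libraries. In the microglia it was 7.66, 7.26 and 6.21 FPKM in the control libraries and 25.9, 25.4 and 23.8 FPKM in the co-culture libraries. The groups did not overlap in either table, and the ratio of group means was 3.71 for Treg cells and 3.55 for microglia. Tma16 (gene 66282, chromosome 8, 66476343 to 66486530), whose yeast counterpart binds assembling large ribosomal subunits, measured 32.9, 31.6 and 30.5 FPKM in the spleen, against 12.6, 10.8 and 7.80 FPKM in the cord. It was at 6.25, 5.82 and 7.04 FPKM in control microglia and 25.1, 19.0 and 22.3 FPKM in co-culture, again with no overlap. Ccdc86 (gene 108673, chromosome 19, 10941481 to 10949266), a nucleolar protein, held 58.6, 63.2 and 71.6 FPKM in the spleen, against 25.2, 23.5 and 27.4 FPKM in the cord. Its microglial values were 14.9, 16.1 and 14.6 FPKM in the controls and 37.4, 36.1 and 37.1 FPKM in co-culture. All 12 values of each of these genes placed the spleen Treg cells and the co-cultured microglia on the high side, the direction for which they were chosen. Groups were free of overlap in both tables in 97.1% of the 209 genes. The level of Ccdc86 is uncertain, since its exons overlap those of Ptgdr2 on the other strand in the GENCODE annotation, and the labels do not state whether counting used strand.

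A list of 37 genes of ribosome assembly and the nucleolus put these values in context. In the Treg table, 27 of the list passed the filter, and all 27 fell in the spinal cord (limma, Benjamini-Hochberg adjusted p under 0.05, a call that 38.6% of all 1072 genes tested had in that direction and 99.6% in either), with a median difference of -1.36 against 0.95 over all genes tested. In the microglia table, 2 of the list passed the filter, Heatr1 and Noc4l, and both rose (53.4% of all 1529 genes tested). Noc4l, also a small-subunit assembly factor, went from 8.68 ± 0.223 to 20.2 ± 0.295 FPKM (SD, n = 3). The counts were 27 and 2 with every library scaled to the same total as well, a setting in which 253 genes rose and 430 fell of all 1075 tested in the Treg table, and 528 rose and 793 fell of 1580 in the microglia table. Heatr1 is part of both counts although its own differences chose it, and both tables hold genes that the authors had selected as changed, so list members without a row are not analysed here.

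The other 5 genes of this direction encode a cytokine, a TNF family ligand, a cell death protein, a protease and an actin-binding protein. Il1a (gene 16175, chromosome 2, 129299609 to 129310186), interleukin 1 alpha, measured 103, 109 and 85.6 FPKM in the spleen, against 14.6, 9.06 and 17.2 FPKM in the cord, which is the largest Treg difference among the 8 (-2.81). In microglia it was at 6.67, 6.80 and 7.12 FPKM in the controls and 20.2, 17.2 and 15.4 FPKM in co-culture, a ratio of 2.56. Spleen Treg libraries thus held more Il1a than any microglial library, with the reservation that the tables were normalized separately. Tnfsf14 (gene 50930, chromosome 17, 57189474 to 57194181), the ligand LIGHT, stood at 11.98, 15.1 and 13.0 FPKM in the spleen, against 6.03, 3.40 and 5.17 FPKM in the cord. Control microglia held close to none, with 0.18, 0.15 and 0.18 FPKM, and co-cultured microglia held 3.06, 3.47 and 3.60 FPKM. The T cell marker with a row in the microglia table, Lck, lay between 0.17 and 0.38 FPKM in the controls and between 0.47 and 0.66 FPKM in co-culture, and the CD8 T and NK cell markers Cd8b1 and Klrk1 summed to 0.03 to 0.19 FPKM and 1.54 to 2.07 FPKM. Their part in the Tnfsf14 values was not tested. Lists of cytokines and of TNF and costimulatory families, which hold Il1a and Tnfsf14, give the setting of both genes. Of the first, 15 rose and 4 fell of 19 cytokine genes tested in the Treg table and 20 rose and 1 fell of 21 in the microglia table, while of the TNF list 9 rose and 2 fell of 11, and all 8 rose, respectively (limma, adjusted p under 0.05). Over all genes tested 61% rose and 38.6% fell in the Treg table, and 53.4% and 46.6% in the microglia table. Il1a and Tnfsf14 are in these counts through the choice of members. With equal totals the cytokine counts were 6 and 4, then 19 and 1, and the TNF counts were 7 and 2, then 6 and 0.

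Bid (gene 12122, chromosome 6, 120893119 to 120917062), which links death receptors to the mitochondrial death pathway, measured 24.0, 27.7 and 17.3 FPKM in the spleen, against 10.6, 8.03 and 8.65 FPKM in the cord. It was at 11.3, 10.3 and 9.83 FPKM in control microglia and 23.4, 25.0 and 24.5 FPKM in co-culture, so the levels of the low and the high groups were alike in both tables. Rai14 (gene 75646, chromosome 15, 10568971 to 10719267), an actin-binding protein, had 6.79, 4.45 and 6.27 FPKM in the spleen, 2.92, 1.34 and 2.78 FPKM in the cord, 10.4, 9.86 and 8.79 FPKM in control microglia and 19.4, 20.1 and 20.3 FPKM in co-culture. St14 (gene 19143, chromosome 9, 31088590 to 31131811), the membrane protease matriptase, measured 25.1, 24.3 and 29.9 FPKM in the spleen, against 12.1, 7.09 and 6.97 FPKM in the cord. Its microglial values were 6.95, 6.96 and 6.45 FPKM in the controls and 11.9, 13.2 and 12.5 FPKM in co-culture. St14 had the smallest microglial difference of this direction (0.80), and with equal totals that difference was -0.07.

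**Figure D2:**
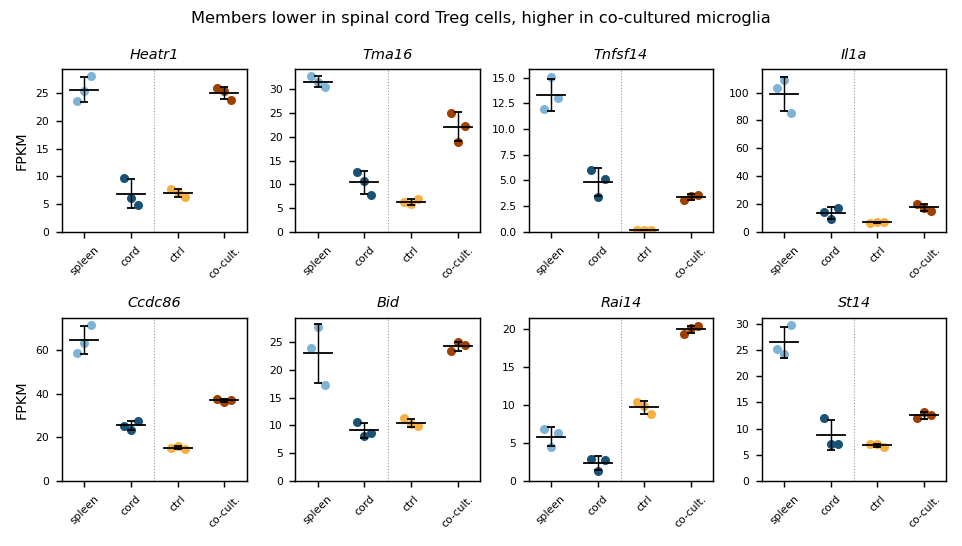
FPKM (y axes, linear, from 0) of the 8 members lower in spinal cord Treg cells and higher in co-cultured microglia, by group (x axis). Dots are libraries, horizontal lines are means and error bars are SDs (n = 3), and the dotted line separates the tables, which were normalized separately. In all 8 genes the spleen libraries lie above the cord libraries and the co-culture libraries above the controls. The rule set these directions, and the groups did not overlap in either table in 97.1% of the 209 genes.

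Of the 38 genes with the other pattern, 7 encode cell surface receptors or receptor-like proteins. S1pr1 (gene 13609, chromosome 3, 115710433 to 115715055), the sphingosine-1-phosphate receptor that lets lymphocytes leave lymphoid organs, had the largest smaller difference of all members. It stood at 11.6, 8.41 and 12.7 FPKM in the spleen, against 59.4, 44.0 and 68.8 FPKM in the cord, and at 82.9, 81.2 and 82.2 FPKM in control microglia and 12.7, 13.1 and 15.2 FPKM in co-culture. The low groups of both tables thus lay within a range of 8.41 to 15.2 FPKM, and neither pair of groups overlapped. Susd3 (gene 66329, chromosome 13, 49230511 to 49248706), a membrane protein with a sushi domain, went from 11.5, 20.2 and 19.0 FPKM in the spleen to 59.5, 54.1 and 49.2 FPKM in the cord. It was at 37.2, 42.5 and 41 FPKM in control microglia and 6.35, 5.68 and 5.67 FPKM in co-culture, a 6.82-fold difference in group means.

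Cx3cr1, Cd14 and Clec4d are receptors of myeloid cells. Cx3cr1 (gene 13051, chromosome 9, 120048683 to 120068296), the fractalkine receptor, had the largest microglial difference of the members (-5.80), from 137, 144 and 126 FPKM in the controls to 1.26, 1.36 and 1.74 FPKM in co-culture. In the Treg libraries it measured 5.72, 0.74 and 4.50 FPKM in the spleen, against 12.4, 11.6 and 10.8 FPKM in the cord, a difference of 1.65 that was 1.05 without spleen library 2. Cd14 (gene 12475, chromosome 18, 36725064 to 36726815), the lipopolysaccharide coreceptor, had spleen values of 0, 2.00 and 1.20 FPKM, the first as listed, and cord values of 24.5, 26.2 and 18.1 FPKM. It was at 458, 440 and 474 FPKM in control microglia and 155, 138 and 161 FPKM in co-culture, which is above every Treg library. Clec4d (gene 17474, chromosome 6, 123262107 to 123275268), a C-type lectin that binds mycobacterial glycolipid, had spleen values of 0 (as listed), 2.16 and 0.79 FPKM, with 5.12, 8.27 and 13.8 FPKM in the cord, 511, 515 and 533 FPKM in control microglia and 167, 142 and 150 FPKM in co-culture. Cd14 and Clec4d were far more abundant in microglia than in Treg cells, as far as separately normalized tables can be set side by side.

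Markers of other cells moved in the same libraries. Of 11 microglia and macrophage markers, 4 had a row in the Treg table (Cd14, Cd68, Csf1r and Cx3cr1), and their summed level was 9.77 to 18.8 FPKM in the spleen libraries and 50.3 to 65.2 FPKM in the cord libraries. Of 7 neutrophil markers, Mmp8 and S100a8 had one, with sums of 4.22 to 9.77 FPKM and 28.4 to 83.0 FPKM. The CD8 T and NK cell markers Klrb1c, Klrk1 and Xcl1 summed to 114 to 118 FPKM in the spleen libraries and 40.0 to 66.5 FPKM in the cord libraries, with Xcl1 lower and Klrk1 higher in the cord. The oligodendrocyte marker Cnp lay at 48.0 to 56.7 FPKM and 159 to 208 FPKM, and the neuronal marker Nefh at 1.38 to 5.37 FPKM and 0.88 to 1.16 FPKM. The B cell marker Cd79b was listed at 0 in the spleen and at 2.66 to 5.38 FPKM in the cord, and the endothelial markers Ly6c1 and Pecam1 summed to 39.4 to 44.4 FPKM and 163 to 410 FPKM. Of the 12 T cell markers, Cd2, Ctla4 and Icos had a row and summed to 787 to 835 FPKM in the spleen and 1786 to 2117 FPKM in the cord, while Foxp3 and Il2ra are not analysed here. In the microglia table, 6 of the 11 microglia and macrophage markers had a row, with sums of 2129 to 2187 FPKM in the controls and 3596 to 3606 FPKM in co-culture. Most of that sum was C1qa, which was higher in co-culture with Aif1 and Itgam, while Cx3cr1, Cd14 and Tmem119 were lower. Of 5 fibroblast markers, Col1a1, Col1a2 and Dcn had a row and summed to 268 to 303 FPKM in the controls and 77.0 to 159 FPKM in co-culture, with Col1a1 and Col1a2 lower and Dcn higher. The endothelial markers Ly6c1 and Pecam1 summed to 1.39 to 1.72 FPKM and 6.53 to 7.67 FPKM there, Cnp and Mbp to 25.5 to 27.5 FPKM and 27.2 to 28.5 FPKM, and the astrocyte marker Aqp4 lay at 2.72 to 4.38 FPKM and 0.70 to 2.07 FPKM. The part of other cells in the values of Cx3cr1, Cd14, Clec4d and the other members was not tested. In bulk libraries fewer cells of a type and less RNA per cell cannot be told apart.

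The remaining surface proteins were Thy1 and Paqr7. Thy1, a membrane glycoprotein of mouse T cells that neurons and fibroblasts also carry, measured 28.6, 28.3 and 36.5 FPKM in the spleen, against 52.2, 106 and 36.1 FPKM in the cord, so that cord library 3 lay inside the range of the spleen. Its Treg difference was 0.90, and it was 0.48 without cord library 2 and -0.02 with equal totals. In microglia it was at 31.6, 22.5 and 44.0 FPKM in the controls and 10.1, 7.50 and 17.0 FPKM in co-culture, the widest spread among the members within the control group (33.0% of the mean). Paqr7, a membrane progestin receptor, went from 2.58 ± 0.337 to 6.13 ± 1.18 FPKM in the Treg cells and from 31.8 ± 1.24 to 11.98 ± 0.273 FPKM in the microglia (SD, n = 3).

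Signalling and cytoskeletal genes made up 9 of the 38. Lsp1 (gene 16985, chromosome 7, 142458223 to 142494868), an actin-binding protein of leukocytes, measured 80.3, 76.0 and 77.9 FPKM in the spleen, against 313, 328 and 264 FPKM in the cord. In microglia it was at 23.8, 24.9 and 27.7 FPKM in the controls and 3.96, 4.21 and 3.28 FPKM in co-culture, the largest ratio of means in this group (6.67). Sla (gene 20491, chromosome 15, 66780819 to 66831829), an adaptor that damps T cell receptor signalling, measured 55.5, 64.5 and 62.0 FPKM in the spleen, against 185, 153 and 212 FPKM in the cord, and at 8.94, 8.56 and 8.95 FPKM in control microglia and 2.92, 3.02 and 2.05 FPKM in co-culture. Cytip, which regulates leukocyte adhesion through cytohesins, went from 142 ± 17.1 to 312 ± 17.5 FPKM in the Treg cells and from 19.6 ± 1.72 to 8.67 ± 0.743 FPKM in the microglia. Lsp1, Sla and Cytip were each more abundant in Treg cells than in microglia, the reverse of Cd14 and Clec4d. The tables were normalized separately, which limits this comparison.

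Rgs2, which turns off Gq proteins, and Prkcb, a protein kinase C, had their highest group mean in control microglia. Rgs2 went from 62.4 ± 2.11 to 17.1 ± 1.20 FPKM in the microglia and from 10.5 ± 1.31 to 20.5 ± 3.53 FPKM in the Treg cells. Prkcb stood closest to the threshold of the rule, with differences of 0.69 and -1.17. It measured 2.10, 1.71 and 2.67 FPKM in the spleen, against 4.25, 7.75 and 1.84 FPKM in the cord, so the groups overlapped, and its difference was 0.30 without cord library 2 and 1.11 without cord library 3. Irs2, an adaptor of insulin receptor signalling, went from 1.34 ± 0.853 to 9.41 ± 2.20 FPKM in the Treg cells and from 9.08 ± 0.108 to 3.76 ± 0.0907 FPKM in the microglia. The formin Fmnl1 and the Ras-related GTPase gene Rrad had Treg ratios of 2.0 and 2.45 and microglial ratios of 2.62 and 2.49. Cord library 3 of Fmnl1 (32.5 FPKM) lay inside the range of the spleen (25.8 to 33.2 FPKM), and with equal totals the Treg difference of Fmnl1 was -0.02. As deposited it was 0.89, and it was 0.58 without cord library 2.

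Lsp1 and Rgs2 belong to a list of 39 genes of the actin cytoskeleton and its signalling. In the Treg table, 7 of the list passed the filter and all 7 rose (limma, adjusted p under 0.05; 61% of all genes tested), while 2 passed with equal totals. In the microglia table, 13 passed the filter, of which 10 fell (46.6% of all genes tested) and 3 rose, or 11 and 2 with equal totals. The largest falls were in contractile genes of smooth muscle and stromal cells, among them Acta2, from 318 ± 34.3 to 24.0 ± 7.80 FPKM, and Myl9, from 59.5 ± 6.38 to 7.58 ± 2.84 FPKM. The fibroblast markers given above moved in these libraries too, and their part in the values of Thy1 was not tested.

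The transcription factors among the 38 were Rora, Zeb1 and Runx2, all near the lower end of expression in the microglia. Rora, a nuclear receptor that tissue Treg cells express, measured 8.01, 8.69 and 10.9 FPKM in the spleen, against 32.5, 40.7 and 32.5 FPKM in the cord. Its microglial values were 2.18, 2.02 and 1.72 FPKM in the controls and 0.65, 0.69 and 0.65 FPKM in co-culture, where a pseudocount of 1 holds the difference at -0.84 for a ratio of means of 2.97. Zeb1, a zinc finger repressor, went from 5.64 ± 0.386 to 13.5 ± 3.94 FPKM and, in microglia, from 3.70 ± 0.323 to 1.56 ± 0.333 FPKM. Runx2, known from bone formation, had the lowest microglial mean of any member (1.22 FPKM over its 6 libraries), and its exons overlap those of the antisense gene Runx2os1. With quantile normalization the microglial differences of Rora and Runx2 were -0.468 and -0.473, under the threshold of 0.5 in size, and that of Zeb1 was -0.614. With equal totals the microglial differences of Rora, Runx2 and Zeb1 were -1.37, -1.36 and -1.56. Of a list of 57 transcription factors of lymphocytes and macrophages, 16 passed the filter in the Treg table, where 14 rose and 2 fell, and 21 in the microglia table, where 15 rose and 6 fell (limma, adjusted p under 0.05). Over all genes tested, 61% rose and 38.6% fell in the Treg table, and 53.4% and 46.6% in the microglia table. Rora, Zeb1 and Runx2 are 3 of the 14 and 3 of the 6, as the choice of members fixed. With equal totals 7 rose and 2 fell in the Treg table, and 11 rose and 7 fell in the microglia table.

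Genes of metabolism, autophagy and redox defence made up 7 of the 38, and their microglial ratios spanned the narrow range of 2.52 to 3.02. Pck2 (gene 74551, chromosome 14, 55540263 to 55550020), the mitochondrial enzyme that makes phosphoenolpyruvate, measured 6.51, 7.90 and 7.96 FPKM in the spleen, against 42.5, 30.1 and 49.3 FPKM in the cord. It was at 22.6, 22.1 and 23.4 FPKM in control microglia and 6.65, 6.82 and 9.04 FPKM in co-culture, with no overlap in either table. Mpc1, a subunit of the mitochondrial pyruvate carrier, was the most abundant member of the group, at 257 ± 27.5 and 486 ± 73.0 FPKM in spleen and cord and 190 ± 6.45 and 68.6 ± 2.28 FPKM in control and co-culture, but with equal totals its Treg difference was -0.02. Castor1, the arginine sensor upstream of mTORC1, went from 3.17 ± 2.23 to 13.1 ± 1.48 FPKM in the Treg cells and from 17.3 ± 1.59 to 5.86 ± 0.104 FPKM in the microglia. Pink1, the kinase that marks damaged mitochondria for removal, and Tecpr1, which takes part in autophagosome maturation, were 2.93-fold and 3.16-fold higher in the cord and 2.52-fold and 2.77-fold lower in co-culture.

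Srxn1 and Akr1b8 encode a sulfiredoxin that restores oxidized peroxiredoxins and an aldo-keto reductase. Srxn1 (gene 76650, chromosome 2, 152105524 to 152111376), whose promoter is printed above, was low in the Treg libraries, at 0.13, 1.01 and 0.65 FPKM in the spleen, against 2.36, 6.90 and 3.46 FPKM in the cord. In microglia it was at 96.1, 94.5 and 107 FPKM in the controls and 34.1, 33.9 and 34.3 FPKM in co-culture, with nearly equal values within co-culture. Akr1b8 went from 2.18 ± 1.26 to 9.39 ± 3.02 FPKM and from 28.4 ± 1.33 to 10.7 ± 2.14 FPKM, and close relatives of this gene could share its reads. Of a list of 23 genes of oxidative stress and iron, 9 passed the filter in the microglia table, where 7 fell and 2 rose (limma, adjusted p under 0.05; 46.6% and 53.4% of all genes tested), or 7 and 1 with equal totals. Srxn1 is among the 7, and among the Treg genes of the list that rose, through the choice of members. The glutathione synthesis genes Gclm and Gclc were among those that fell, from 129 ± 7.31 to 52.6 ± 1.29 FPKM and from 20.2 ± 0.366 to 8.38 ± 0.549 FPKM, as was catalase, Cat, from 327 ± 12.4 to 53.7 ± 0.957 FPKM. In the Treg table, 4 of the list passed the filter, where 3 rose (Fth1, Mt2 and Srxn1; 61% of all genes tested) and 1 fell (Tfrc; 38.6%), or 2 and 1 with equal totals.

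**Figure D3:**
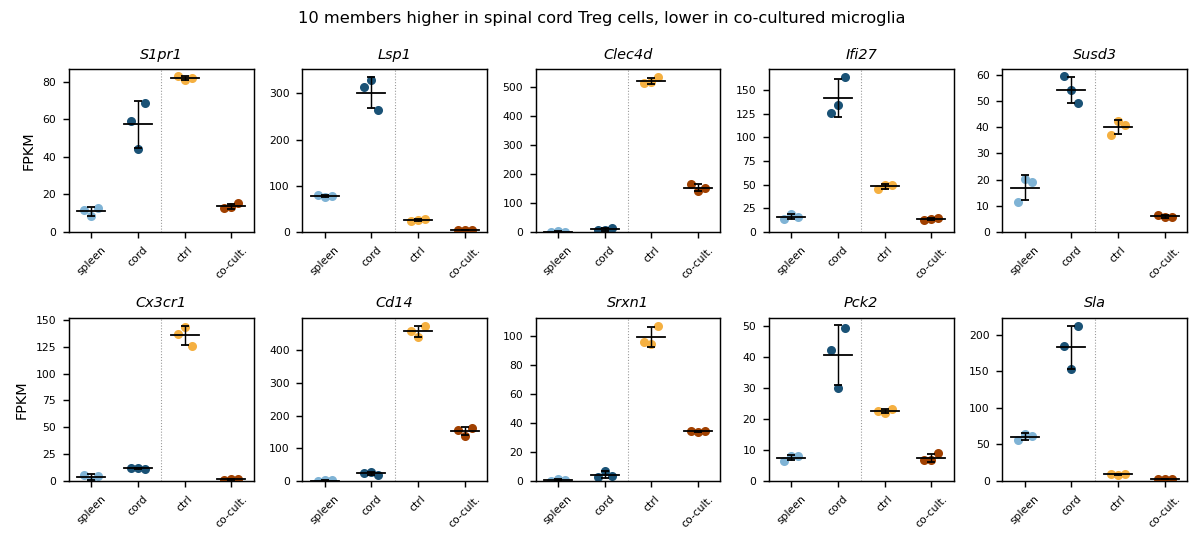
FPKM (y axes, linear, from 0) of the 10 members with the largest smaller difference among those higher in spinal cord Treg cells and lower in co-cultured microglia. Dots are libraries, lines are means and bars are SDs (n = 3), and the dotted line separates the tables, which were normalized separately; Clec4d, Cx3cr1, Cd14 and Srxn1 are highest in control microglia, and Lsp1, Ifi27 and Sla in spinal cord Treg cells.

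A further 12 genes had other roles. Ifi27 (gene 52668, chromosome 12, 103434189 to 103440245), an interferon-inducible gene, measured 13.6, 18.7 and 16.3 FPKM in the spleen, against 126, 134 and 164 FPKM in the cord, but at 45.5, 49.9 and 49.7 FPKM in control microglia and 12.5, 13.8 and 15.1 FPKM in co-culture. It was not on the list of 52 interferon-induced genes, of which 26 passed the filter in the Treg table and all rose (61% of all genes tested), and 46 passed in the microglia table, where 45 rose (53.4%) and 1 fell (46.6%; limma, adjusted p under 0.05). With equal totals 19 rose in the Treg table, and 41 rose and 1 fell in the microglia table. Its relative Ifi27l2a, which is on that list, was higher in both comparisons, from 37.0 ± 8.40 to 1637 ± 356 FPKM in the Treg cells and from 49.7 ± 2.81 to 163 ± 11.7 FPKM in the microglia (SD, n = 3). Another relative, Ifi27l2b, just outside the filter with a microglial mean of 0.822 FPKM, had differences of 1.81 and -1.23, and the treatment of reads that fit several relatives is not stated in the labels.

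Ccn4, a secreted matrix-associated protein of the Wnt pathway, had the largest Treg difference of all members (4.14). It measured 1.46, 0.97 and 0.58 FPKM in the spleen, against 33.7, 36.0 and 31.8 FPKM in the cord, against 2.68, 2.02 and 2.18 FPKM in control microglia and 0.49, 0.43 and 0.93 FPKM in co-culture. The microglial side of Ccn4 was thus a difference between low levels, while the Treg side was a 33.7-fold ratio of means. Ccn4 and Sla lie 59540 bases apart on chromosome 15, the closest pair of members. The histone gene H3c15 measured 7.93, 6.53 and 4.59 FPKM in the spleen, against 9.63, 17.3 and 33.5 FPKM in the cord, and near-identical histone copies make its value uncertain. Perp, a p53 target of cell junctions, went from 20.5 ± 3.80 to 47.4 ± 2.73 FPKM and from 5.49 ± 0.626 to 1.74 ± 0.50 FPKM. The Cdk-activating phosphatase gene Cdc25b went from 16.0 ± 3.44 to 36.5 ± 7.93 FPKM and from 8.20 ± 0.299 to 3.16 ± 0.0854 FPKM. Chst12, Padi2, Fam129a, Ctla2b, Avpi1, Mfsd6 and Izumo4 were the others, and over all 12 the Treg ratios lay between 1.88 and 33.7 and the microglial ratios between 2.36 and 5.13. Ctla2b shares most of its exonic bases with an overlapping gene model on its own strand, and with equal totals its Treg difference was -0.04.

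**Figure D4:**
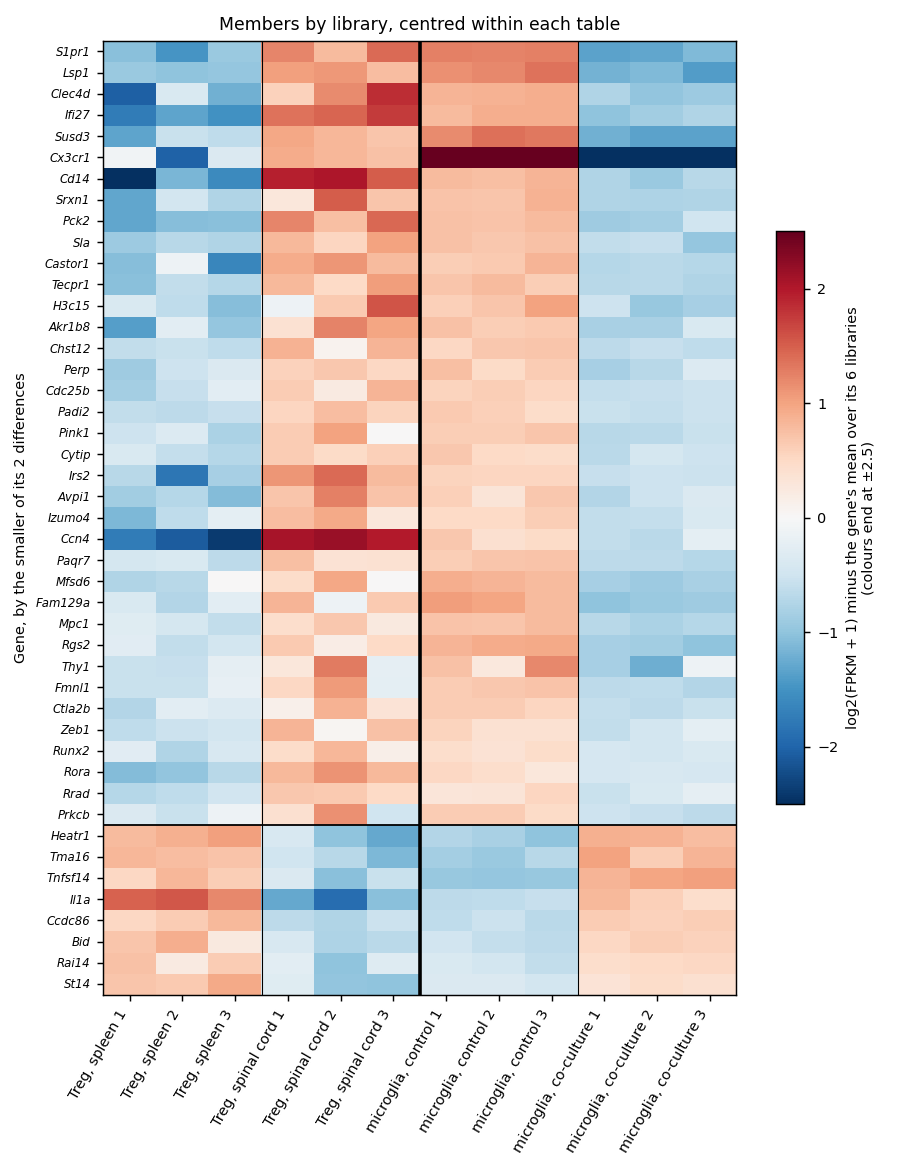
Each cell is the log2(FPKM + 1) of a member (rows, by the smaller of its differences within each direction) in 1 library (columns), minus the mean of that gene over the 6 libraries of its own table, so colours are not comparable as levels across the thick line. The 37 upper and 8 lower genes drawn show the opposite turns, and cord libraries 2 and 3 differ from each other in Thy1, Fmnl1 and Prkcb.

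The libraries of a group were close in the microglia and further apart in the Treg cells. The median coefficient of variation over the members was 16.1% in the spleen, 23.7% in the cord, 6.63% in control microglia and 7.16% in co-culture, and over all genes tested it was 19.0%, 23.8%, 7.83% and 6.92%. The groups did not overlap in 43 of the 46 members in the Treg table and in 46 of 46 in the microglia table, and in the same tables they did not overlap in 97.6% and 100% of all genes tested, and in both at once in 97.1% of the 209. Both differences reached 1 in size in 30 of the 46, against 69.9% of the 209 genes, and over all genes tested 84.1% reached it in the Treg table and 72.8% in the microglia table. The exceptions to separation were Thy1, Fmnl1 and Prkcb, all through a low cord library 3. Leaving out any 1 of the 12 libraries left 45 to 47 genes under the rule, and without cord library 2 Thy1 and Prkcb dropped out, leaving 44 of the members.

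By the rule, cord was above spleen and control above co-culture in the 38 genes, and the reverse held in the 8. The highest group could thus only be cord or control in the 38, and spleen or co-culture in the 8. Which of these was highest is not set by the rule, but it compares tables that were normalized separately. Among the 38, the highest group mean was that of spinal cord Treg cells in 23 genes and that of control microglia in 15. Among the 8, it was that of spleen Treg cells in 6 and that of co-cultured microglia in 2 (Bid and Rai14). In FPKM, the median level of the 38 was 9.83 in spleen, 27.8 in cord, 24.1 in control microglia and 6.48 in co-culture. That of the 8 was 26.1, 8.90, 6.95 and 21.0 FPKM in the same groups. Within each table, the order of these medians follows from the choice of members. The members lay on 18 chromosomes with at most 4 on each, and 14 of the 46 share exonic bases with another annotated gene.

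The scaling of the libraries bears on how many genes count as opposite. The deposited values sum to more in the cord and co-culture libraries than in their controls, and giving every library of a table the same total moved the median difference by -0.85 for Treg cells and by -0.83 for microglia. Among all genes tested, the share of calls that were higher went from 61.2% to 37.0% in the Treg table and from 53.4% to 40.0% in the microglia table with equal totals. Under equal totals 24 genes met the rule, of which 22 were members (19 of the 38 and 3 of the 8), and with quantile normalization 36 did, of which 34 were members (28 and 6). In 5 members the Treg difference changed sign with equal totals (among them Mpc1, Thy1, Fmnl1 and Ctla2b), and in St14 the microglial one did. S1pr1, Lsp1, Cx3cr1, Cd14, Clec4d, Ifi27, Srxn1, Pck2, Heatr1, Tma16 and Tnfsf14 kept both differences above 0.5 in size under each of the scalings. So did Susd3, Sla, Castor1, Tecpr1, H3c15, Akr1b8, Irs2, Avpi1, Izumo4 and Ccn4. Totals over tables of selected genes are not library sizes, so neither scaling is a correction for depth, which is unknown.

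**Figure D5:**
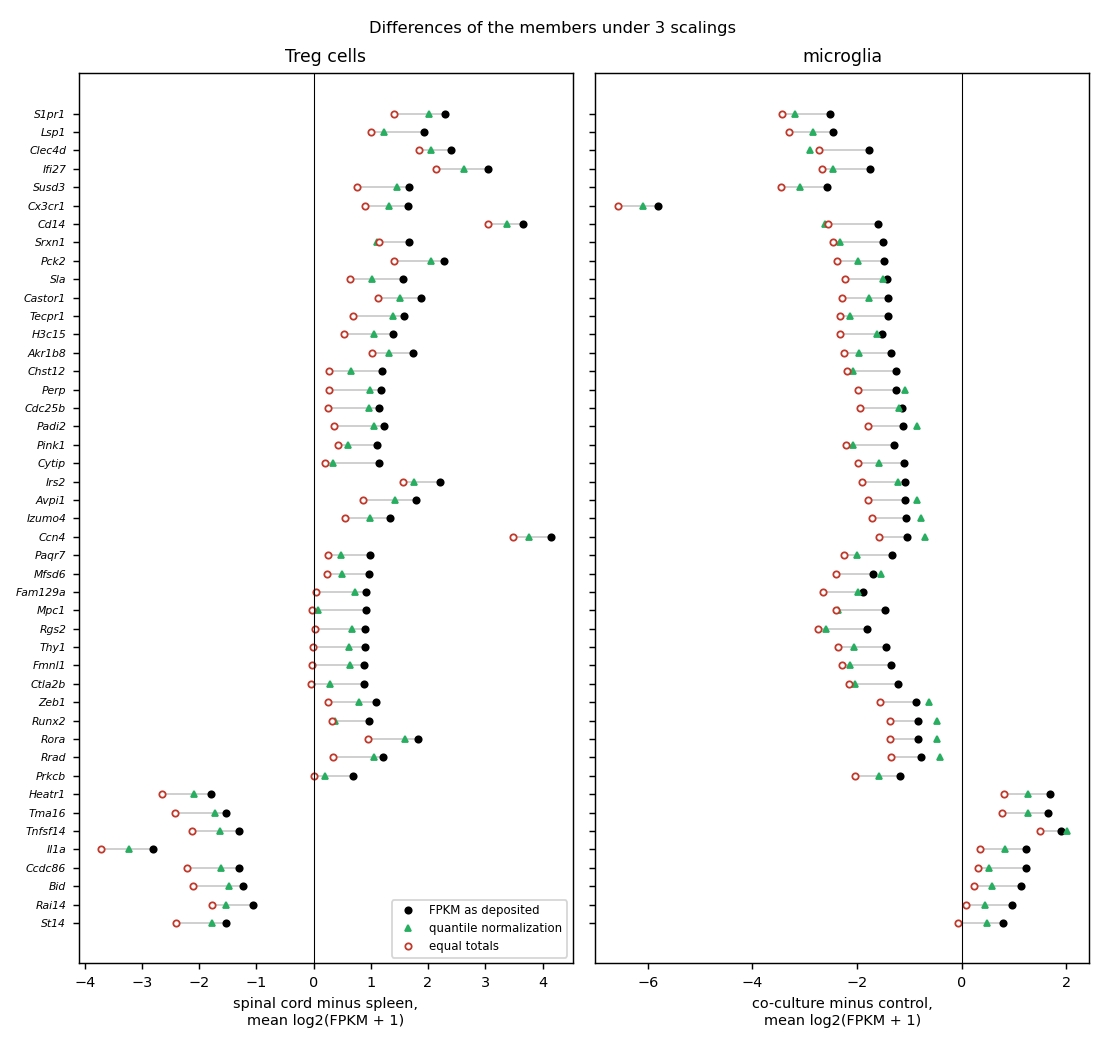
Difference of each member drawn (rows, 37 cord-higher and 8 cord-lower) in the Treg cells (left, spinal cord minus spleen) and the microglia (right, co-culture minus control), in mean log2(FPKM + 1), with the FPKM as deposited (black), after quantile normalization (green triangles) and with equal totals (open red circles). Equal totals move every point drawn to the left, by a median of -0.85 and -0.83 over all genes tested, and bring several Treg differences of the cord-higher members to about 0.

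Near the limits of the rule, the smallest differences among members were 0.69 for Prkcb in the Treg cells and -0.77 for Rrad in the microglia. No gene that passed the filter was opposite with a difference under 0.5. Both tables held only genes with an authors' log2 fold change of at least 1 in size, which left little room for such a gene. By mean level, Runx2 (1.22 FPKM) and Rora (1.32 FPKM in microglia) lay just inside, and Chac1 (0.925 FPKM in microglia) and Pik3r6 (0.905 FPKM in Treg cells) just outside. Without the filter on the mean, 67 genes met the rule, which is 21 beyond the members. Counted by sign alone, with no minimum difference and no names left out, 36 opposite genes were below 1 FPKM in at least 1 table.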

How the data were processed

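FPKM per gene and library were deposited by the authors in 2 tables, with their own log2 fold changes and Q values, per the file headers. Both tables held genes that the authors had selected as changed (log2 fold change of at least 1 in size, Q value under 0.05, as tested on the rows). Per the submitters' processing notes, Bowtie2, RSEM 1.3.1, DESeq2 1.4.5 and GRCm38.p6 were used, with no roles given. The microglia fold header has a group word (Young) that no label uses, and its sign was that of co-culture over control in all 2186 rows. Depth is unknown, strandedness is not stated in the labels, and the authors' folds and Q values enter no result.

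Differences are of mean log2(FPKM + 1). limma 3.58.1 (R 4.3.3) was fitted on each whole table with a mean of at least 1 FPKM, with Benjamini-Hochberg adjustment, and was tested on simulated data. Members, lists, roles and motifs were chosen with earlier results of these data known. Named in full were the 10 cord-higher members with the largest smaller difference and all 8 cord-lower members, and list members by group means; the others singled out were chosen after their values were seen. The values of 1 cord-higher member, which is in the counts, are not reported here. Promoters are from RefSeq and exonic overlaps from GENCODE. Alternatives were other pseudocounts, filters, scalings, a replicate block and leaving out each library.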

Additional observations from a re-analysis of the deposited data

How the results depend on the processing

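With equal totals 24 genes were opposite (21 cord-higher, 3 cord-lower), and limma called 683 genes in the Treg table. The Treg differences of Mpc1, Thy1, Fmnl1 and Ctla2b were then -0.0211, -0.0160, -0.0235 and -0.04, and the microglial difference of St14 was -0.0679. A mean of at least 5 FPKM left 30 opposite genes (24 cord-higher) and 1001 microglial calls, since fewer genes were tested. A difference of at least 1 also left 30 (24 cord-higher). With no filter 14 genes were cord-lower. The cause of the change with equal totals was not tested. Leaving out 1 library gave 45 to 47 opposite genes.

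Deviations of same-numbered libraries had correlations of -0.003, -0.041 and -0.053 in Treg cells, and of -0.041, 0.149 and 0.175 in microglia. Control and co-culture library 3 correlated best with each other, but not every library correlated best with its own number. Control library 2 and co-culture library 1 reached 0.271. With 3 libraries a group, these values cannot decide whether same-numbered libraries were paired. With the replicate number as a block, limma called 1064 and 1529 genes, against 1068 and 1529 without. FPKM without counts give no depth, and 3 libraries a group limit the precision.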
